A study of Mus musculus with 14 samples.

Results

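The enzymes that build cholesterol and fatty acids, and the proteins that switch their genes on and off, were followed in the cerebral cortex of mice with and without Fmr1, which encodes FMRP, a protein that binds mRNA and is missing in fragile X syndrome. The set is a fixed list of 28 genes, matched by exact symbol to a count table of 23412 genes, and 27 of them were found. The symbol Msmo1 was not matched; RefSeq gives Sc4mol as an older symbol of that gene, and the row named Sc4mol is described separately and is in no count of RNA, footprints or their ratio; counts of promoter windows include Msmo1. The match itself used symbols only.

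Control mice carried the genotype Rpl22flox/flox;CamKCre+, and knock-out (KO) mice carried Fmr1X-Y together with the same Rpl22 and Cre alleles. Both groups therefore shared a floxed Rpl22, the ribosomal protein gene of the RiboTag system, and a Cre that the labels write as CamK in the genotype and CAMKIIa in the source name, a promoter of forebrain excitatory neurons. The labels name cortex lysate as the material and no pull-down of tagged ribosomes, so values describe the whole tissue, in which fewer cells of a type and less RNA per cell cannot be told apart. Age is not given in the sources used here. There were 8 RNA-seq libraries, from control mice 1, 3, 6 and 8 and from KO mice 2, 4, 5 and 7. Ribosome profiling, which sequences the short mRNA pieces that ribosomes shield from nuclease (footprints), had 6 libraries, from controls 1, 3 and 9 and from KO animals 2, 4 and 10. The question in the study's design text is how transcription and translation compare between Fmr1-deficient and wild-type cortex.

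Library totals were 8847547 to 11371851 counts in RNA and 4124065 to 6033030 in footprints, and the 27 genes took 0.316% to 0.345% of RNA counts and 0.425% to 0.449% of footprint counts. Fmr1 RNA in KO mice was at 26.1% of the control mean and Fmr1 footprints were at 6.56%, with no overlap between genotypes in either assay. Each RNA library went with its labelled genotype in Fmr1, at 71.4 to 90.0 CPM in controls, with mouse 8 lowest, and at 18.1 to 23.4 CPM in KO mice, with mouse 5 lowest. RNA libraries of KO mice 2, 4 and 7 differed from each other by little more than counting noise (chi-square per degree of freedom 1.18 to 1.32), although they carry different title prefixes and the labels give them as different mice. Whether they are independent samples was not tested, and an n of 4 KO mice counts them as 3. The other pairs of RNA libraries of the same genotype lay between 1.99 and 11.8, with the highest values in pairs that held control mouse 8 or KO mouse 5. All 6 footprint pairs lay between 1.15 and 1.42. RNA and TE calls are given below with these RNA libraries and with them summed or left out. Summing near-identical footprint libraries would leave 1 per genotype and no test. The footprint p-values therefore measure only the spread between these libraries, and leaving out 1 mouse at a time does not show whether they are independent.

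Cells make cholesterol from acetyl-CoA through mevalonate, squalene and lanosterol, and they make fatty acids by joining malonyl-CoA units into palmitate, into which stearoyl-CoA desaturases then put a double bond. Both routes are switched on by the SREBP transcription factors. These are held in the endoplasmic reticulum by the INSIG proteins when sterol is plentiful, and carried to the Golgi for cleavage by SCAP when sterol is scarce. The brain makes nearly all of its own cholesterol because plasma lipoproteins do not cross the blood-brain barrier, and myelin made by oligodendrocytes holds much of it.

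SREBPs bind sterol regulatory elements in promoters beside NF-Y and Sp1, so RefSeq start-site windows (assembly GRCm38.p6, 250 bases before to 50 after each start) were searched on both strands. The searched letters were TCACNCCAC for the sterol regulatory element, TCACGTGA for an E-box that SREBPs can also bind, CCAAT for the NF-Y box and GGGCGG for the Sp1 box. The RefSeq table held 30 windows for 22 of the 28 listed genes; Fdps, Fdft1, Sqle, Scd1, Scd2 and Stard4 had none there. The stretches below are shown for Hmgcs1, the gene whose window held the sterol regulatory element, for Pmvk, Srebf2 and Fasn, whose ratio of footprints to RNA passed the test, and for Cyp51, whose footprints rose. Each runs 5′ to 3′ on the gene's own strand from 10 bases before the first match to 10 after the last match before the start site, with matches to any of these motifs in capitals. The places are chr13:119690104-119690342 (+) for Hmgcs1, chr3:89454395-89454419 (+) for Pmvk, chr5:4104712-4104842 (-) for Cyp51, chr15:82147048-82147250 (+) for Srebf2 and chr11:120824592-120824647 (-) for Fasn, each upstream of the start its window was drawn from. For Fasn that start is an internal one: the RefSeq gene record extends to base 120825166, so the Fasn stretch lies inside the annotated gene.
Hmgcs1: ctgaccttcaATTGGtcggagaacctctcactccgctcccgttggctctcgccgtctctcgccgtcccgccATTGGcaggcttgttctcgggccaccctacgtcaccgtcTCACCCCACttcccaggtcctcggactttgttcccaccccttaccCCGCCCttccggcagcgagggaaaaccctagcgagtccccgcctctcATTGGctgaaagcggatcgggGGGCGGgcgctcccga
Pmvk: ctcaggttggCCAATtcacagcatc
Cyp51: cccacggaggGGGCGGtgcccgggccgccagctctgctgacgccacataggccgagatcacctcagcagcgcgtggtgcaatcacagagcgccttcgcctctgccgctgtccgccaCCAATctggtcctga
Srebf2: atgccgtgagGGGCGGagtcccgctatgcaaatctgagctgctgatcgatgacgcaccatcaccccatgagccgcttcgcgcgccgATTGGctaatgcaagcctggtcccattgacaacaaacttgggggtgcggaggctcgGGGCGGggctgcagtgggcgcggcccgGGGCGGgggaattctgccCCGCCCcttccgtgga
Fasn: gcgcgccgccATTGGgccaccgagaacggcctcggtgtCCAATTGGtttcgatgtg

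The sterol regulatory element letters were in 1 of the 30 windows, that of Hmgcs1, starting 137 bases before the start site, and in 1.24% of the 32851 windows of all genes. The E-box letters were in 0 of the 30 and in 0.97% of all windows. The NF-Y box was in 20 of the 30 windows against 37.4% of all windows, and the Sp1 box was in 23 of the 30 against 35.7%. By gene, 19 of 22 had an NF-Y box in at least 1 window, against 41.1% of all genes, and 19 of 22 had an Sp1 box, against 38.2%. In Fasn 2 NF-Y matches, on opposite strands, overlap at 62 and 59 bases before the start. A match describes letters in this window and is no evidence of binding.

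**Figure D1:**
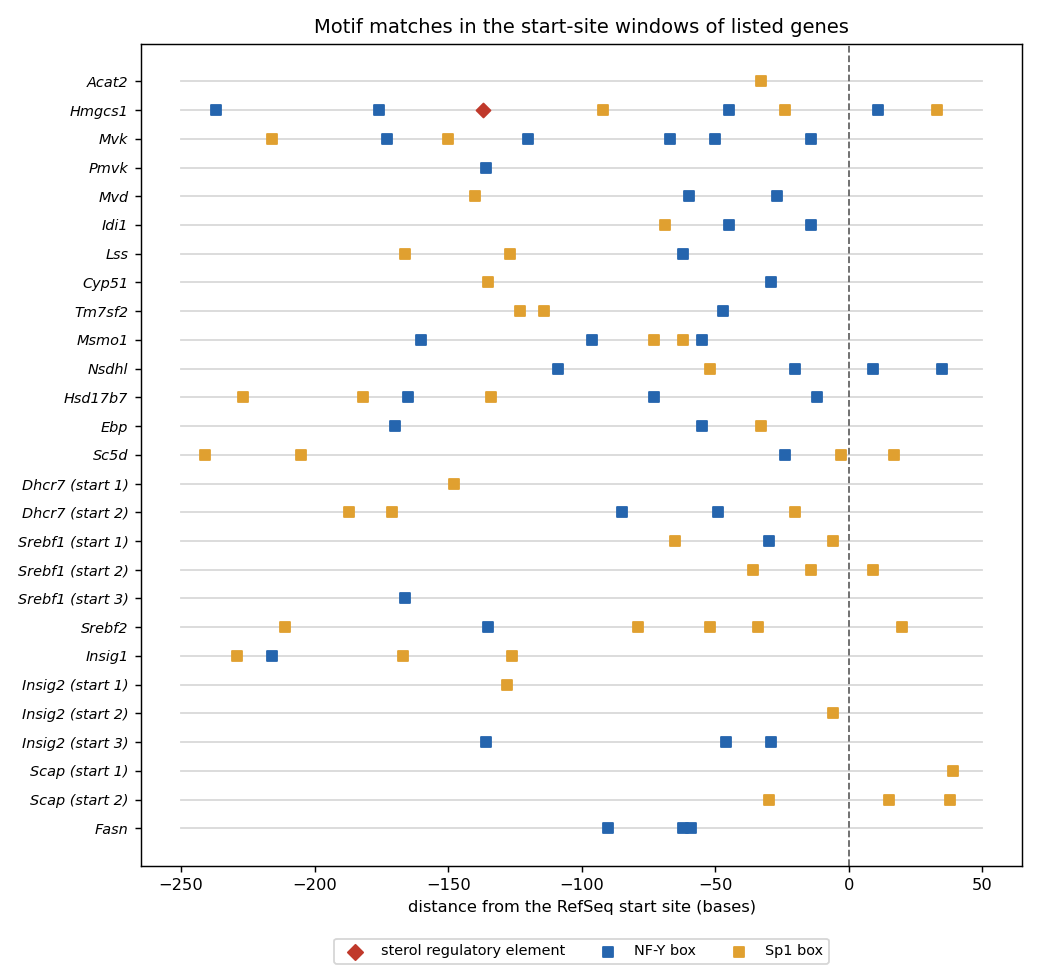
Matches to the sterol regulatory element, NF-Y box and Sp1 box by distance in bases from the RefSeq start site (dashed line), for the 27 of 30 windows that held at least 1 match; the grey line is the searched window, and genes with several annotated starts have several rows. The sterol regulatory element appears once, in Hmgcs1, while NF-Y and Sp1 boxes are spread over the windows, most of them upstream of the start.

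Over all 8 RNA libraries 1 of the 27 genes passed the test, and in mice 1 to 4 alone 9 of 27 did, where 24.2% of all genes passed. Dhcr7, the enzyme of the last step of one route to cholesterol, was the gene that passed over all 8 libraries, and it was higher in KO mice. Over all 13507 genes tested, 7.51% passed (3.58% higher in KO, 3.94% lower), and 1 of 27 is near that share. Of the 27 log2 fold changes 17 were above 0 and 10 below, with a median of 0.05, where the median over all genes tested was -0.001.

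Levels are in CPM, counts relative to the library total, scaled with edgeR's TMM factors, and they compare libraries for 1 gene, not genes with each other. Dhcr7 RNA was at 28.5, 29.1, 32.0 and 29.8 CPM in control mice 1, 3, 6 and 8. It was at 37.5, 34.9, 38.6 and 34.9 CPM in KO mice 2, 4, 5 and 7. Every KO library lay above every control library. The control mean was 29.9 ± 1.51 CPM and the KO mean 36.5 ± 1.88 CPM (SD, n = 4 each), a log2 fold change of 0.29 ± 0.072 (SE; edgeR's quasi-likelihood test, Benjamini-Hochberg adjusted p = 0.0273). The difference stayed between 0.25 and 0.33 in 20 alternative analyses and its call was lost in 8 of them. Those were the fits without control mouse 1 or 3 or KO mouse 2, 4 or 7, those that summed the near-identical libraries (adjusted p = 0.163 with KO mice 2, 4 and 7 as 1 library) and mice 5 to 8 alone.

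Stard4, which carries cholesterol between membranes, was the other gene whose RNA libraries did not overlap. Its control libraries lay between 13.0 and 15.0 CPM and its KO libraries between 15.4 and 19.1 CPM. Its log2 fold change was 0.29 ± 0.098 (edgeR, adjusted p = 0.0888), and in the deposited exon columns it was 0.30 ± 0.085 (edgeR, adjusted p = 0.0465). The 2 genes with higher KO values in every library compare with 7.10% of all genes tested, and the 0 genes with lower values compare with 7.97%.

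RNA of the mevalonate arm, which runs from acetyl-CoA to farnesyl diphosphate, had 0 of 7 genes past the test. Log2 fold changes ran from -0.21 for Pmvk to 0.17 for Idi1. Hmgcs1, which makes HMG-CoA, was at 626, 640, 586 and 555 CPM in control mice 1, 3, 6 and 8 and at 615, 612, 675 and 606 CPM in KO mice 2, 4, 5 and 7. Control and KO libraries overlapped, and the log2 fold change was 0.06 ± 0.059 (edgeR, adjusted p = 0.596). Pmvk, which puts the second phosphate on mevalonate, was at 42.1, 37.0, 35.1 and 39.0 CPM in the same control mice and at 33.1, 32.4, 31.3 and 36.2 CPM in the same KO mice. Only KO mouse 7 lay above the lowest control library, and the log2 fold change was -0.21 ± 0.078 (edgeR, adjusted p = 0.121).

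Later steps varied by gene. The 3 genes that make squalene and turn it into lanosterol (Fdft1, Sqle and Lss) had RNA log2 fold changes from -0.10 to 0.001. The 7 measured genes from lanosterol to cholesterol ran from -0.19 for Tm7sf2 to the called rise of Dhcr7. Cyp51, the lanosterol demethylase, was at 119, 125, 126 and 145 CPM in control mice 1, 3, 6 and 8 and at 144, 145, 129 and 143 CPM in KO mice 2, 4, 5 and 7. Control mouse 8 held the highest value, so the groups overlapped (log2 fold change 0.12 ± 0.068; edgeR, adjusted p = 0.305).

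None of the 5 genes of SREBP control passed the RNA test, nor did any of the 4 fatty acid genes. Srebf2, the SREBP that mainly drives cholesterol genes, was at 188, 183, 198 and 184 CPM in control mice 1, 3, 6 and 8 and at 196, 202, 232 and 199 CPM in KO mice 2, 4, 5 and 7. Only KO mouse 2 lay under the highest control library (log2 fold change 0.14 ± 0.061; edgeR, adjusted p = 0.19). Fasn, the synthase that makes palmitate, was at 576, 570, 571 and 562 CPM in the control mice and at 591, 580, 612 and 569 CPM in the KO mice, in the same order. The Fasn ranges overlapped through KO mouse 7 (0.05 ± 0.048; edgeR, adjusted p = 0.622).

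Scd1 and Scd2, paralogous stearoyl-CoA desaturase genes, varied widely between control mice; how reads that match both were counted is not given in the sources used here. Scd1 RNA was at 40.9, 37.4, 60.2 and 80.9 CPM in control mice 1, 3, 6 and 8 and at 81.2, 83.7, 55.8 and 77.3 CPM in KO mice 2, 4, 5 and 7. Control mouse 8 stood among the KO libraries and KO mouse 5 among the controls. Scd2, the main stearoyl-CoA desaturase of mouse brain, was at 504, 500, 592 and 716 CPM in the control mice and at 634, 607, 579 and 636 CPM in the KO mice. Its highest library was again control mouse 8. The log2 fold changes were 0.44 ± 0.19 for Scd1 and 0.09 ± 0.094 for Scd2 (edgeR, adjusted p = 0.175 and 0.62).

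The RNA result depended on which mice were in the fit. Mice 1 to 4, the mice that also gave footprints, had 9 of 27 genes past the test in RNA: Cyp51, Sc5d, Dhcr7, Srebf1, Insig1, Insig2, Scd1 and Scd2 were higher in KO mice and Pmvk was lower. Over all genes 24.2% passed in that fit. Mice 5 to 8, whose libraries share 1 title prefix, had 0 of 27, and 0.423% of all genes. The fitted log2 fold change of Scd1 was 1.08 ± 0.072 in mice 1 to 4 (edgeR, adjusted p = 5.5e-11) and -0.08 ± 0.14 in mice 5 to 8 (edgeR, adjusted p = 0.874), and the difference between these sets was not tested. Dhcr7 was at 0.33 ± 0.089 and 0.25 ± 0.13 in the same sets, and Stard4 at 0.30 ± 0.12 and 0.27 ± 0.17. Without control mouse 8 the count was 4 (Cyp51, Dhcr7, Scd1 and Scd2), without KO mouse 5 it was 2 (Dhcr7 and Stard4), and without both it was 7, all higher in KO mice. Over all genes 13.2%, 10.7% and 22.6% passed in these fits, so the 7 of 27 lie near the share of all genes. With KO mice 2, 4 and 7 summed to 1 library the count was 0, and 0.623% of all genes passed.

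**Figure D2:**
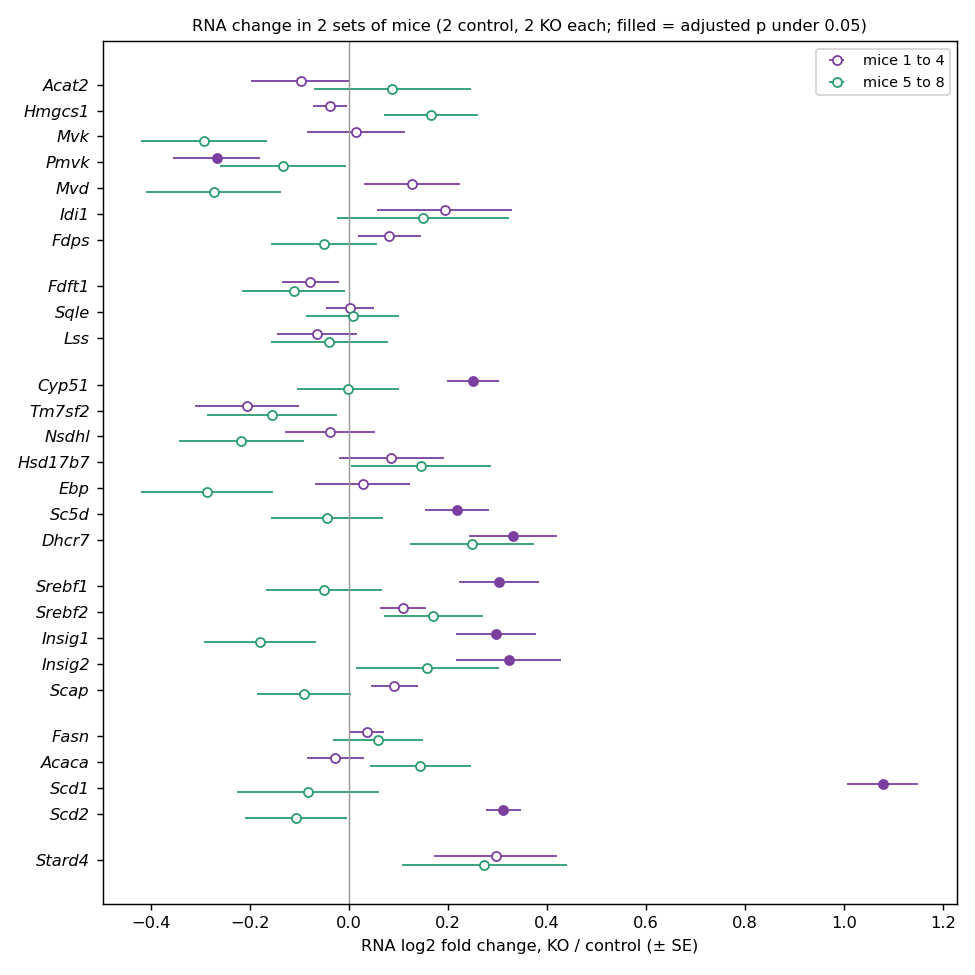
RNA log2 fold change of each gene, KO over control, with its SE, fitted in mice 1 to 4 (purple) and in mice 5 to 8 (green), 2 control and 2 KO libraries each; filled points have an adjusted p under 0.05. The 9 filled points are all in mice 1 to 4, and Scd1 shows the widest gap, 1.08 against -0.08.

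Markers of other cells moved with genotype in the same RNA libraries. The summed level of 8 oligodendrocyte markers was 5109 to 5624 CPM in control libraries and 4512 to 4847 CPM in KO libraries, without overlap. The 4 oligodendrocyte precursor markers summed to 212 to 231 CPM in control and 187 to 207 CPM in KO libraries, with Pdgfra lower. The 5 excitatory neuron markers summed to 2050 to 2330 CPM in control and 2633 to 2929 CPM in KO libraries, with Slc17a7 and Camk2a higher. Among 6 astrocyte markers Gfap and Aqp4 were lower, at 72.2% and 72.8% of the control mean, while the sum of the 6, most of it Slc1a2, overlapped (2992 to 3193 against 3072 to 3808 CPM). Of the 5 inhibitory neuron markers Slc32a1 was higher (148% of control) and Pvalb lower (78.6%), and of 3 choroid plexus markers tested Kcnj13 was lower (51.6%). Sums overlapped for the 5 microglia markers (265 to 305 against 276 to 291 CPM), of which 0 passed. They also overlapped for the 5 endothelium markers (102 to 194 against 118 to 187 CPM), of which 0 passed. Choroid plexus sums differed widely between libraries of the same genotype. They were at 7.26 to 272 CPM in control and 3.84 to 112 CPM in KO libraries. No marker of oligodendrocytes, their precursors, neurons, astrocytes or microglia had 0 counts in any library. The part of these shifts in the values of the pathway genes was not tested.

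Footprints differed between genotypes in 11 of the 27 genes. Scd1, Pmvk, Insig1, Cyp51, Sc5d, Fdft1 and Hmgcs1 rose, and Scap, Fasn, Srebf2 and Scd2 fell. Over all 12158 genes tested 25.7% passed, 1461 of them higher (12%) and 1662 lower (13.7%). The 27 values were split evenly, 14 above 0 and 13 below, with a median log2 fold change of 0.01, as over all genes tested (0.01).

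The mevalonate arm had 2 of 7 genes higher in footprints and 0 lower, near the 25.7% of all genes that passed in either direction. Hmgcs1 footprints were at 1171, 1168 and 1138 CPM in control mice 1, 3 and 9 and at 1251, 1246 and 1248 CPM in KO mice 2, 4 and 10. The KO libraries all lay above the controls, by a small margin: 107.7% of the control mean, log2 fold change 0.11 ± 0.022 (edgeR, adjusted p = 7.71e-05). Pmvk footprints were at 40.2, 36.4 and 35.2 CPM in the control mice and at 45.4, 48.7 and 45.3 CPM in the KO mice. They did not overlap, with means of 37.3 ± 2.63 and 46.5 ± 1.92 CPM (SD, n = 3 each) and a log2 fold change of 0.33 ± 0.091 (edgeR, adjusted p = 0.00331). The other 5 genes of the arm, Acat2, Mvk, Mvd, Idi1 and Fdps, lay between -0.48 and 0.07. Idi1, the isomerase of isopentenyl diphosphate, had only 11 to 37 footprint counts per library, and its -0.48 ± 0.30 is not resolved at this depth (edgeR, adjusted p = 0.257).

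On the way from farnesyl diphosphate through squalene to cholesterol 3 of 10 measured genes rose in footprints and 0 fell, also near the 25.7% of all genes (12% higher, 13.7% lower). Cyp51 footprints were at 176, 172 and 180 CPM in control mice 1, 3 and 9 and at 215, 212 and 198 CPM in KO mice 2, 4 and 10. The genotypes did not overlap, and the log2 fold change was 0.24 ± 0.044 (edgeR, adjusted p = 6.98e-06). Sc5d, a desaturase late in the route, was at 0.22 ± 0.062 and Fdft1, which makes squalene, at 0.15 ± 0.056 (edgeR, adjusted p = 0.00377 and 0.0432). Ebp, a sterol isomerase, also had every KO library above every control library but did not pass (0.19 ± 0.092; edgeR, adjusted p = 0.128). The row named Sc4mol rose by 0.23 ± 0.046 (edgeR, adjusted p = 3.28e-05), from 170.5, 161 and 160.0 CPM in the controls to 204, 183 and 189 CPM in the KO mice. Dhcr7, the gene called in RNA, had footprints at 77.1, 73.3 and 84.9 CPM in the control mice and at 80.8, 76.8 and 80.8 CPM in the KO mice. Those ranges overlapped, with a log2 fold change of 0.02 ± 0.067 (edgeR, adjusted p = 0.876).

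Among the 5 genes of SREBP control 1 rose and 2 fell in footprints, where 12% and 13.7% of all genes did. Srebf2 footprints were at 252, 252 and 259 CPM in control mice 1, 3 and 9 and at 237, 227 and 231 CPM in KO mice 2, 4 and 10. All KO libraries lay below all controls, at 90.9% of the control mean (log2 fold change -0.14 ± 0.039; edgeR, adjusted p = 0.00457). Scap, the SREBP escort protein, was at -0.25 ± 0.086 and Insig1, one of the proteins that retain it, at 0.24 ± 0.092 (edgeR, adjusted p = 0.0224 and 0.0393). Srebf1 and Insig2 were at -0.06 ± 0.089 and -0.24 ± 0.15 and did not pass.

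Fatty acid synthesis had 1 of 4 genes higher and 2 lower in footprints, against the same shares of all genes. Fasn footprints were at 738, 749 and 713 CPM in control mice 1, 3 and 9 and at 643, 660 and 662 CPM in KO mice 2, 4 and 10. The groups did not overlap, with means of 733 ± 18.5 and 655 ± 10.1 CPM (SD, n = 3 each) and a log2 fold change of -0.16 ± 0.027 (edgeR, adjusted p = 5.53e-07). Acaca, whose enzyme makes the malonyl-CoA that Fasn uses, had all KO libraries below all controls as well, at -0.24 ± 0.11 (edgeR, adjusted p = 0.0851).

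The desaturase genes Scd1 and Scd2 moved in opposite directions in footprints. Scd1 was at 61.0, 64.8 and 67.0 CPM in control mice 1, 3 and 9 and at 90.8, 89.8 and 87.3 CPM in KO mice 2, 4 and 10. The gap between the groups was far wider than the spread within them: 139% of the control mean and a log2 fold change of 0.47 ± 0.067 (edgeR, adjusted p = 1.43e-08), the highest of the 27. Scd2 was at 1070, 1031 and 1082 CPM in the control mice and at 966, 998 and 1010 CPM in the KO mice. Its groups did not overlap either, at 93.4% of the control mean (-0.10 ± 0.024; edgeR, adjusted p = 0.001).

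Without overlap, 8 genes had all KO footprint libraries above the controls and 5 had all below, against 18.1% and 19.2% of all genes tested. Footprint calls of Cyp51, Fasn and Pmvk were kept in all 14 alternative analyses, while those of Fdft1, Insig1 and Scap were lost in 8 or 9 of them. A fit over all 14 libraries, which gives footprints the spread of the RNA libraries too, called 3 of 27 (Cyp51, Fasn and Pmvk), near the 12.6% of all genes in that fit. Mice 1 to 4 alone gave 7 of 27, where 20.5% of all genes passed, and leaving out 1 mouse gave 8 to 10 of 27, where 20.7% to 23.4% did. Plain library sizes in place of TMM called 8 higher and 1 lower (Fasn), so that Srebf2, Scd2 and Scap were no longer called, where over all genes the share of calls that were higher went from 46.8% to 66.3%. The summed oligodendrocyte markers were at 8735 to 8890 CPM in control footprints and 8566 to 8605 CPM in KO footprints (2 of 8 higher, 3 lower), and precursor markers at 404 to 411 and 320.2 to 340.5 CPM (3 of 4 lower). Excitatory neuron markers were at 4390 to 4496 and 4137 to 4262 CPM (2 of 5 higher, 1 lower), also without overlap. Inhibitory neuron markers were at 1578 to 1621 and 1640 to 1662 CPM (2 of 5 higher, 1 lower) and the 3 choroid plexus markers tested had 2 lower, with sums of 13.1 to 15.3 and 4.755 to 10.1 CPM. Sums overlapped for astrocytes (4714 to 4778 and 4735 to 4767 CPM; 1 of 6 higher, 2 lower), endothelium (189.9 to 198 and 192 to 209.5 CPM; 2 of 5 higher, 1 lower) and microglia (331 to 349 and 336 to 344 CPM; 0 of 5 called). The part of these markers in the footprint values was not tested.

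**Figure D3:**
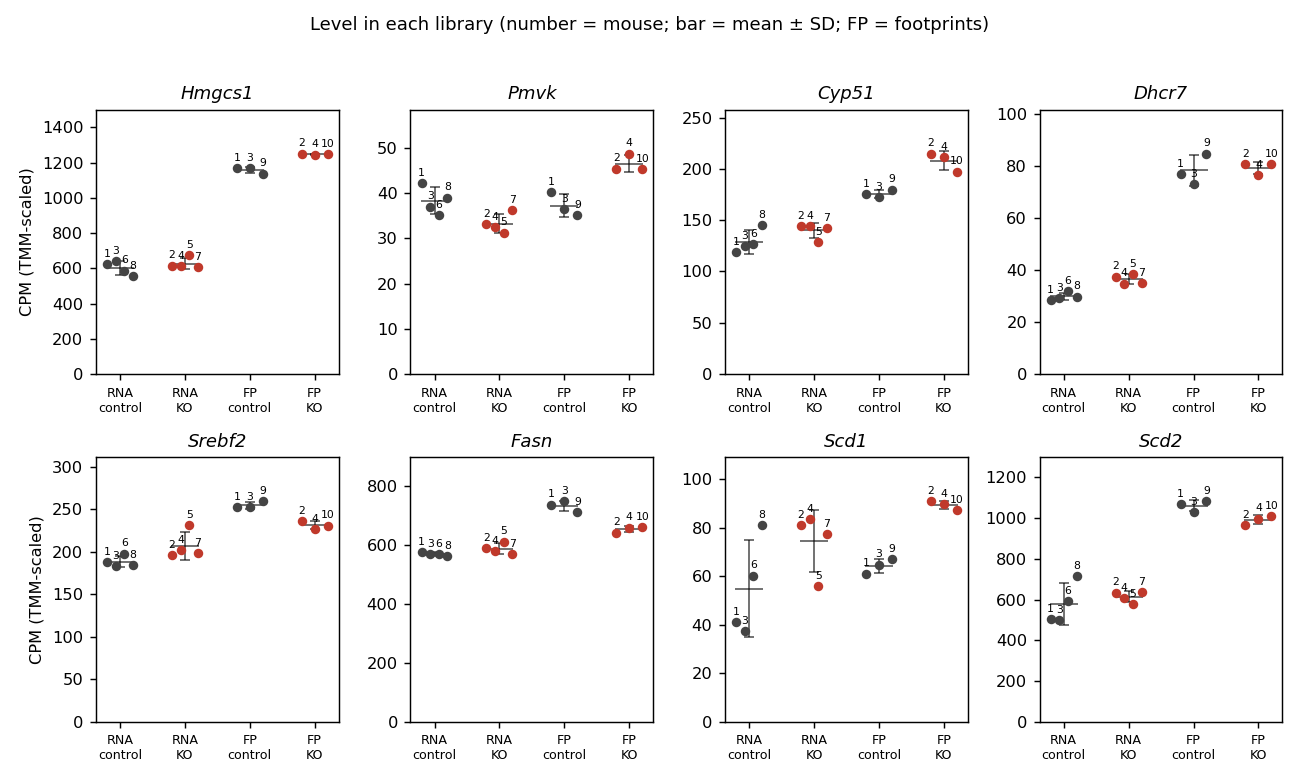
Level of 8 genes in each library in TMM-scaled CPM, for RNA (control and KO, 4 mice each) and footprints (FP; 3 mice each); points are libraries numbered by mouse, and bars are the mean ± SD. Footprint libraries of Hmgcs1, Pmvk, Cyp51 and Scd1 lie higher in KO mice and those of Srebf2, Fasn and Scd2 lower, while in RNA only Dhcr7 separates the genotypes, and Scd1 control libraries run from 37.4 to 80.9 CPM.

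The ratio of footprints to RNA, called translational efficiency (TE), was tested as the interaction of genotype and assay over all 14 libraries. It passed the test in 3 of 27 genes: Pmvk rose, and Srebf2 and Fasn fell. Over all 12145 genes tested 7.44% passed (3.22% higher, 4.22% lower). The median log2 change of the 27 ratios was 0.01, and -0.01 over all genes tested, with 14 above 0 and 13 below.

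For Pmvk the footprint level divided by the RNA level was 0.954 and 0.982 in control mice 1 and 3 and 1.37 and 1.5 in KO mice 2 and 4, the mice with both assays. The KO ratios were both higher, and the fitted change was 0.52 ± 0.12 on the log2 scale (edgeR, adjusted p = 0.00975). In this gene RNA had the lower value and footprints the higher one in KO mice. It was called in 21 of 22 alternatives, and without KO mouse 4 its adjusted p was 0.0698.

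For Srebf2 the ratio was 1.34 and 1.38 in control mice 1 and 3 and 1.21 and 1.12 in KO mice 2 and 4. Both KO ratios were lower (-0.28 ± 0.079; edgeR, adjusted p = 0.0323). The Fasn ratio was 1.28 and 1.31 in the controls and 1.09 and 1.14 in the KO mice, again lower in both (-0.22 ± 0.060; edgeR, adjusted p = 0.0311). Both genes stayed below 0 in all 22 alternatives, and the call was lost in 7 for Srebf2 and 8 for Fasn. Leaving out control mouse 1 or 3 or KO mouse 2, 4 or 10 ended both calls, and leaving out control mouse 9 ended that of Srebf2 (edgeR, adjusted p = 0.0642 to 0.122 for Srebf2 and 0.0653 to 0.155 for Fasn). Plain library sizes ended both as well (adjusted p = 0.0803 and 0.103) and called Fdft1 higher (0.30 ± 0.093; edgeR, adjusted p = 0.0474), so that 2 of 27 were higher and 0 lower, while over all genes the share of TE calls that were higher went from 43.3% to 67.9%. When KO mice 2, 4 and 7 counted as 1 RNA library 2 of 27 passed, Pmvk and Srebf2 (edgeR, adjusted p = 0.0256 and 0.0369), and Fasn did not (0.0578); 4.16% of all genes passed there. Dhcr7, higher in RNA alone, was at -0.28 ± 0.10 and did not pass (edgeR, adjusted p = 0.101).

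In mice 1 to 4 alone 8 of 27 genes passed, with the mouse as a block and also without it: Pmvk rose, and Fasn, Srebf1, Srebf2, Insig2, Scap, Scd1 and Scd2 fell. Over all genes 15.4% passed with the block and 14.6% without it. Scd1 turned from 0.02 ± 0.26 over all libraries (edgeR, adjusted p = 0.979) to -0.57 ± 0.11 in these mice, with the block (edgeR, adjusted p = 1.62e-05) or without it (4.16e-05). Its ratio was 1.49 and 1.73 in control mice 1 and 3 and 1.12 and 1.07 in KO mice 2 and 4. Scd2 was at -0.42 ± 0.052 in the block (edgeR, adjusted p = 4.01e-13), with ratios of 2.12 and 2.06 in the controls and 1.52 and 1.64 in the KO mice. These are the mice in which Scd1 and Scd2 RNA was higher in KO libraries. Without the RNA of KO mouse 5 and control mouse 8 the count was 5 (Pmvk higher; Fasn, Scap, Scd2 and Srebf2 lower), where 16.5% of all genes passed. Without KO mouse 4 it was 0, and 3.40% of all genes passed.

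**Figure D4:**
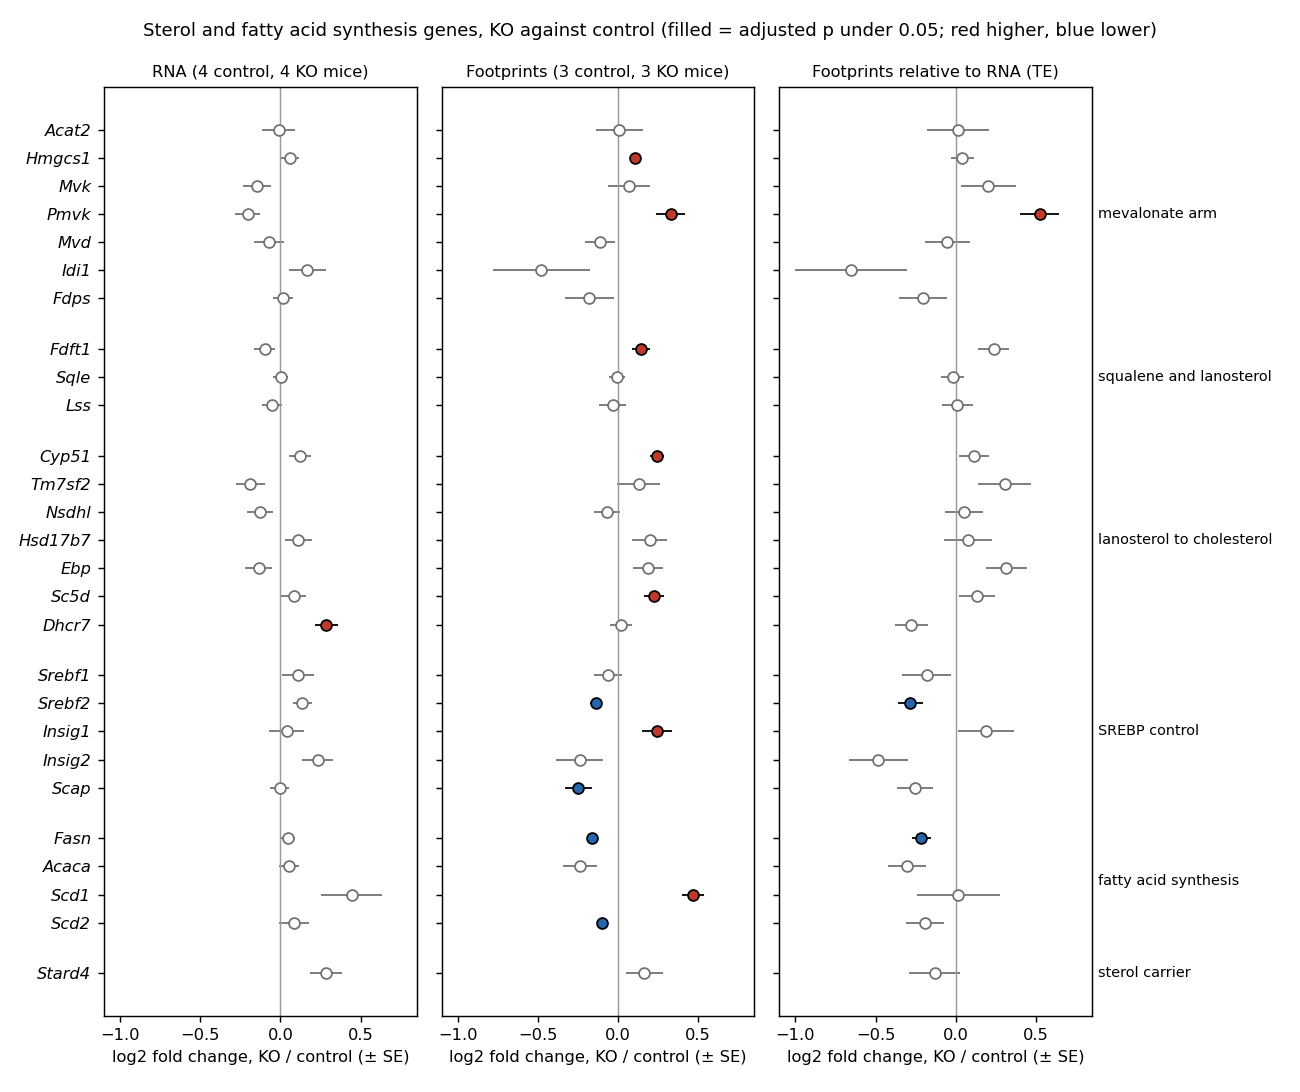
Log2 fold change of each gene, KO over control, with its SE, in RNA (left), footprints (middle) and footprints relative to RNA (right), grouped by role; filled points have an adjusted p under 0.05, red higher and blue lower. The left panel has 1 filled point, Dhcr7, the middle panel 11 and the right panel 3.

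The ratio also compares genes with each other, because a gene's length counts in both of its parts if the same region was counted, which the sources used here do not state. In control mice it ran from 0.204 for Fdps, which makes farnesyl diphosphate, to 2.63 for Dhcr7, a 12.9-fold range. The median of the 27 was 1.11, and 0.913 over all genes tested in both assays. Hmgcs1, early in the mevalonate arm, was at 1.93, above 91.9% of all genes. Acat2, also early in that arm, was at 0.617, above 27% of genes. Idi1 and Fdps, later in the same arm, were at 0.312 and 0.204, above 6.79% and 2.80% of genes. Steps of 1 route therefore lay near both ends of the range over all genes.

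Genes of SREBP control spanned less of the range, from 0.312 for Scap, above 6.78% of all genes, to 1.35 for Srebf2, above 76.4%. Srebf1 was at 0.95 and Insig1 and Insig2 at 0.642 and 0.771. In fatty acid synthesis Scd2 was at 1.84 and Fasn at 1.29, and Acaca at 0.339. Some neighbours by ratio, such as Hsd17b7 (1.41), Ebp (1.37) and Cyp51 (1.36), differed by less than the gap between control mice 1 and 3. Others differed by more, such as Dhcr7 (2.63, with 2.7 and 2.51 in these mice) and Hmgcs1 (1.93, with 1.87 and 1.82). The RNA level in the ratio comes from the columns without a suffix. Exon columns held 5.99 times as many Scd1 counts and 5.28 times as many Scd2 counts, but hardly any more for Fdps. Library totals were higher in the exon columns too. Control means therefore went from 54.9 to 190 CPM for Scd1, from 578 to 1711 CPM for Scd2 and from 76.5 to 41.6 CPM for Fdps. With those columns the ratio would be lower for the desaturases and higher for Fdps.

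**Figure D5:**
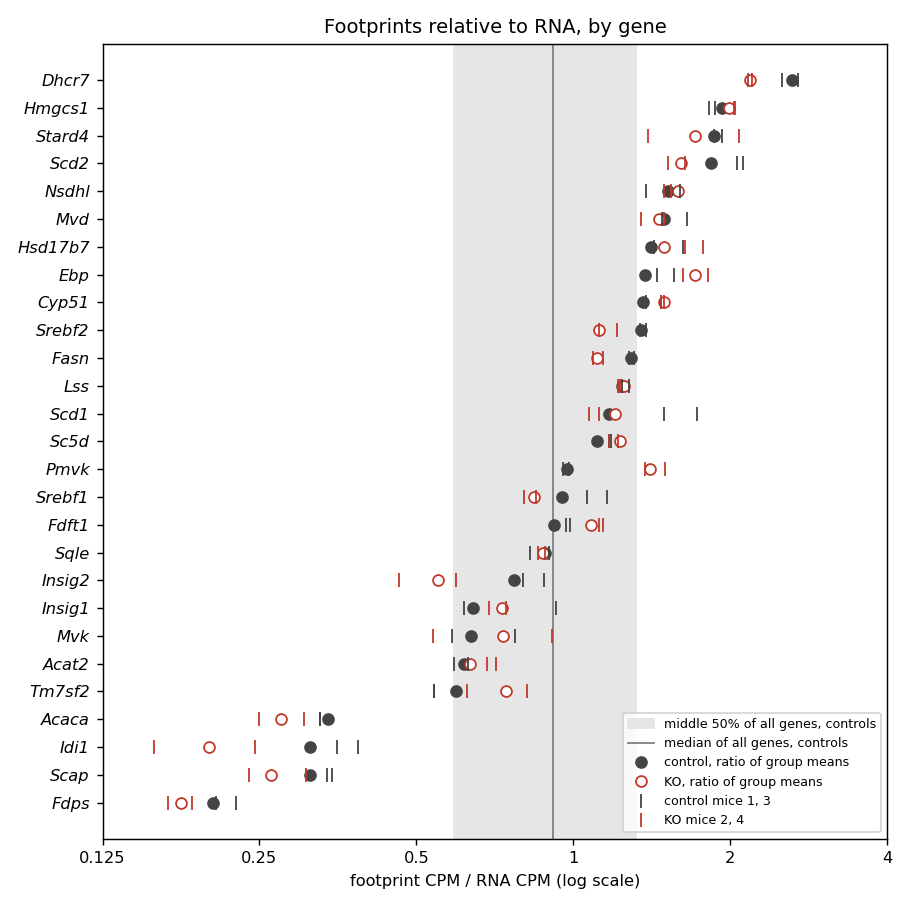
Footprint CPM divided by RNA CPM on a log axis, for the ratio of group means in control (filled) and KO (open) mice and for each mouse with both assays (ticks); the grey band is the middle 50% of all genes in controls and the line their median, 0.913. Dhcr7 is highest at 2.63 and Fdps lowest at 0.204 in controls. KO values lie to the right of all control values in Pmvk, and also in Hmgcs1, Acat2, Ebp, Fdft1 and Tm7sf2. Of these only Pmvk passed the TE test. KO values lie to the left of all control values in other genes, among them Srebf2, Fasn and Dhcr7.

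Another 51 genes around these routes were listed by role. In RNA 3 of the 50 tested passed, no larger a share than the 7.51% of all genes. Nus1, a subunit of the enzyme that makes dolichol precursors, and Mbtps2, the protease that releases SREBP from the membrane, rose by 0.30 ± 0.070 and 0.30 ± 0.081 (edgeR, adjusted p = 0.0179 and 0.0363), and Tecr, a reductase of very long chain fatty acid synthesis, changed by -0.23 ± 0.063 (edgeR, adjusted p = 0.0398). None of these 3 calls held with KO mice 2, 4 and 7 summed (edgeR, adjusted p = 0.12, 0.195 and 0.263 for Nus1, Mbtps2 and Tecr) or in the exon columns (0.0529, 0.19 and 0.0898), where Me1 was higher and Idh1 lower instead (0.0372 and 0.0214; both named after their values were seen). The count was 0 of 51 without control mouse 1, without control mouse 6 or without KO mouse 4, and 1 without KO mouse 2 or 7. The share of all genes was low in these fits too, at 3.78%, 3.77%, 2.74%, 2.75% and 2.95% in the same order. It was 5 of 50 without control mouse 8, 11 of 50 without that mouse and KO mouse 5, and 18 of 51 in mice 1 to 4, where 13.2%, 22.6% and 24.2% of all genes passed.

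In footprints 11 of 47 passed, 8 higher and 3 lower, a share near the 25.7% of all genes. The count was 5 with DESeq2 and 4 in the fit over all 14 libraries, where 14.8% and 12.6% of all genes passed, and 6 of 48 without KO mouse 4, where 20.7% did. The smallest p-values were those of Fads1, a desaturase of polyunsaturated fatty acids (0.30 ± 0.040; edgeR, adjusted p = 2.61e-09, and 0.0983 in the fit over all 14 libraries), Acly, which supplies cytosolic acetyl-CoA (-0.16 ± 0.033; 4.89e-05), and Abca1, a cholesterol exporter (-0.30 ± 0.065; 0.000163). Fads1 was at 203 to 214 CPM in control footprints and 254 to 260 CPM in KO footprints. Fatty acid elongation and desaturation had 5 of 10 genes higher (12% of all genes were) and 0 lower, with a median of 0.16. These were Elovl4 (0.18), Elovl5 (0.26), Elovl6 (0.50), Fads1 and Fads2 (0.14), of which all but Fads1 were named after their values were seen. Not all 5 calls held in every fit. Over all roles of this list, 3 genes were called higher with DESeq2, 3 without KO mouse 4 and 2 in the fit over all 14 libraries. Sterol turnover, storage and transport had 0 of 14 higher and 2 lower, Abca1 and Vldlr, where 13.7% of all genes were lower. In TE 1 of 47 passed, against 7.44% of all genes: Ggps1, which makes geranylgeranyl diphosphate (0.66 ± 0.14; edgeR, adjusted p = 0.0064). Ggps1 stayed called with KO mice 2, 4 and 7 summed (edgeR, adjusted p = 0.0268), and its call was lost without KO mouse 4 (0.0522), the one loss in 22 alternatives. The TE count was 3 of 47 without KO mouse 5, 4 of 47 with voom and 4 without KO mouse 5 and control mouse 8, and 5 of 48 in mice 1 to 4 with the block (10.1%, 15.7%, 16.5% and 15.4% of all genes). The next smallest p-values were those of Tecr (0.24 ± 0.081) and Abca1 (-0.28 ± 0.098), which did not pass (edgeR, adjusted p = 0.0729 and 0.0811). Ggps1 RNA was at 67.6 to 72.9 CPM in control and 59.7 to 63.1 CPM in KO libraries, and its footprints at 9.86 to 10.5 and 12.8 to 15.7 CPM.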

How the data were processed

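The authors deposited 1 table of raw counts per gene, with no normalization: 6 footprint columns, 8 RNA columns without a suffix and 8 RNA columns whose header ends in exon. The submitters' processing notes name Bowtie2, STAR 2.5, featureCounts, Subread 1.4.6 and the builds mm9 and mm10, with no role for each; the strand setting and the region counted are not given in the sources used here. Per the labels' protocols, monosomes came from RNase I-digested lysates on a sucrose gradient, footprint libraries were made without ligation, and RNA libraries were depleted of ribosomal RNA and strand-specific. In 2849 genes the footprint and unsuffixed RNA columns hold no value, and these were not tested there. Groups and mouse numbers came from the labels, which place mice 1 to 4 in both assays.

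Counts were tested with edgeR 4.0.16 (R 4.3.3; TMM, filterByExpr with a minimum count of 10, quasi-likelihood F test, two-sided), with RNA and footprints in separate fits and TE in 1 fit. Benjamini-Hochberg adjustment ran over all genes tested, and called means an adjusted p under 0.05. The SE is the log2 fold change divided by the square root of F. The current rather than the earlier dispersion estimate of edgeR was chosen after the data were seen; the same number of listed genes was called under each.

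The genes, their roles and the other lists were chosen with earlier results of these data known. Values in every library are given for genes called in RNA or TE and for the 6 with the smallest footprint p among those called; of other pathway genes, fold changes of the 3 with the smallest p in each test, with ranges of levels for Fads1 and Ggps1 only. Single results for some genes of the other lists are not reported here. Alternatives used DESeq2 1.42.0, limma 3.58.1 (voom), other normalizations, no filter, fewer libraries and the exon columns. Mice 1 to 4 pair the assays because the labels give them the same animal; correlations of their deviations between assays were 0.003, 0.011, 0.035 and -0.012. Library totals limit precision mostly in footprints of low genes. Levels per coding length were not made, because coding lengths were not used here.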

Additional observations from a re-analysis of the deposited data

Results flagged for a closer look

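Among 54 groups of 4 RNA libraries (27 genes, 2 genotypes), 4 had a library far from the other 3, by Dixon's test at the 95% level, which flags about 5% of groups by chance when libraries are independent. All 4 were KO groups, in which the libraries of mice 2, 4 and 7 are near-identical (chi-square per degree of freedom 1.18 to 1.32), so that this rate does not apply to them. KO mouse 5 was the library in 3 of them. Its Hmgcs1 level was 674.6 CPM against 605.5 to 615.1 CPM in the other KO libraries, its Cyp51 level was 128.7 CPM against 142.6 to 144.6 CPM, and its Fdps level was 70.7 CPM against 78.3 to 79.8 CPM. The Srebf1 level of KO mouse 2 was 47.96 CPM against 50.59 to 50.9 CPM in the other KO mice, a narrow gap in a tight group. Without KO mouse 5 the RNA log2 fold change of Cyp51 was 0.16 ± 0.066 (edgeR, adjusted p = 0.133).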

How the results depend on the processing

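The number of genes called of 27 was compared across analyses, of which the fits without KO mouse 5 and control mouse 8, the footprint fit of mice 1 to 4, the TE fit of mice 1 to 4 with no mouse term and the earlier dispersion estimate were chosen after seeing the data. In RNA (1 called) the count was 0 with KO mice 2, 4 and 7 summed (0.623% of all genes). It stayed 0 with control mice 1 and 3 summed as well (0.263%) and was 0 in mice 5 to 8 (0.423%). It was 2 with the exon columns (8.64%), 7 without KO mouse 5 and control mouse 8 (22.6%) and 9 in mice 1 to 4 (24.2%). It was 0 to 4 without 1 mouse, where 2.74% to 13.2% of all genes passed. In footprints (11 called) it was 3 in 1 fit over 14 libraries (12.6% of all genes), 7 in mice 1 to 4 (20.5%) and 8 to 10 without 1 mouse (20.7% to 23.4%). In TE (3 called) it was 6 with limma voom, where 15.7% of all genes passed against 7.44% in edgeR, 5 without KO mouse 5 and control mouse 8 (16.5%) and 0 to 4 without 1 mouse (3.05% to 10.1%). In mice 1 to 4 TE had 8 called with the mouse as a replicate block and 8 with no mouse term, and the Scd1 ratio turned from 0.017 to -0.574 with the block and -0.571 without it. The replicate block by title prefix, which is no pairing of animals, left RNA at 1 and footprints at 11. Over all genes, calls went from 1015 to 3284 in mice 1 to 4 and 57 in mice 5 to 8 (RNA), from 3123 to 1801 with DESeq2 (footprints), and from 904 to 1876 with the mouse block and 1779 without it in mice 1 to 4 (TE). Plain library sizes moved the share of TE calls that were higher from 43.3% to 67.9%. The cause of these changes was not tested, apart from fewer libraries in some fits. DESeq2, DESeq2 size factors, no filter and the earlier estimate kept the count of listed genes within 1.5 times in each test. Depth limits Idi1 most, with 11 to 37 footprint counts.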
